A study of Zea mays with 2 samples.

Results

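The sites described here are binding sites of Opaque2 (O2) near the ends of the maize chromosomes. A peak was taken as near an end when its summit lay within 10 Mb of the lowest or the highest O2 summit of the same chromosome. In the later of 2 deposited peak lists, marked release 26, 355 of 2555 peaks on chromosomes 1 to 10 met this rule (13.9%), and 2200 lay farther in. In the earlier list, marked release 15, 230 of 1681 did (13.7%), and 1451 lay farther in. The rule used position alone, so pileup, fold enrichment and length played no part in choosing the peaks.

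Chromatin immunoprecipitation with sequencing (ChIP-seq) was carried out on wild-type maize endosperm at 15 days after pollination. Sonicated nuclei gave 1 library with an antibody raised in rabbits against the full-length O2 protein and 1 control library with rabbit IgG. Both lists were called from this pair of libraries, so the earlier list is a second view of the same reads and not a replicate. Nothing used here names the assembly of either release or the read filters, and total depth is unknown. Peak names carry the tag uniq in the earlier list only, and the later list's own name carries a version tag. Neither tag is explained. The lists may thus differ in more than the release. Without replicate libraries no value has an error between samples, and the tests below take the 10 chromosomes as units.

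O2 belongs to the basic leucine zipper family of transcription factors. It acts in the endosperm, the storage tissue of the kernel, and is known for switching on genes of zein storage proteins. It binds DNA sites with an ACGT core, of which the O2 box of zein promoters is the classic case. Maize chromosomes are known to carry most of their genes toward the ends and more repeats and heterochromatin around the centromeres. No annotation or genome of the lists' own assemblies was used here, so sites are given by position, without genes or sequence.

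O2 sites were denser near the chromosome ends than farther in. Leaving out the outermost summits, which define the windows, the later list had 335 peaks in 200 Mb of end windows and 2200 peaks in 1847 Mb farther in. The density was 1.68 peaks per Mb (exact Poisson 95% interval 1.5 to 1.86) near the ends and 1.19 per Mb (1.14 to 1.24) farther in. The pooled ratio was 1.41 (exact conditional 95% interval 1.25 to 1.58). That sites are denser toward the ends of these lists was already known when the 10 Mb windows were chosen, so this is not independent support for it.

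Averaged over chromosomes, the later density was 1.68 ± 0.280 peaks per Mb (SD, n = 10 chromosomes) near the ends and 1.18 ± 0.107 farther in. The ends were denser on 9 of 10 chromosomes, and the mean log2 ratio was 0.50 ± 0.28 (SD, n = 10; two-sided exact permutation by sign flips of chromosomes, p = 0.00391, Benjamini-Hochberg adjusted p = 0.0156 over 4 measures). The smallest p this test can give is 0.00195. Chromosome 7 was the exception, with 1.20 peaks per Mb near its ends and 1.26 farther in, and its end density was the lowest of the 10. The highest ratio was on chromosome 10, at 1.85 (95% interval 1.27 to 2.63), followed by chromosome 4 at 1.79 (1.25 to 2.50). Intervals lay wholly above 1 on 5 of the 10 chromosomes, and none lay wholly below 1. All these intervals treat peaks as independent counts and cover counting error only.

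The earlier list had a lower density both near the ends and farther in. It held 210 peaks in the end windows, at 1.05 per Mb (0.913 to 1.20), and 0.790 per Mb (0.750 to 0.831) farther in, a pooled ratio of 1.33 (1.14 to 1.54). Again 9 of 10 chromosomes were denser near the ends (mean log2 ratio 0.43 ± 0.36, SD, n = 10; exact sign-flip permutation p = 0.00781, adjusted p = 0.0312). Here the exception was chromosome 3, with 0.7 peaks per Mb near its ends and 0.922 farther in. The later list had 1.5 and 1.27 on chromosome 3, so the direction on this chromosome depended on the list. Chromosome 7 likewise differed, with 1.05 and 0.791 in the earlier list. On both chromosomes the interval of the ratio included 1 in either list, so neither list showed a direction there. Earlier intervals lay wholly above 1 on 2 of the 10 chromosomes, and none lay wholly below 1.

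**Figure D1:**
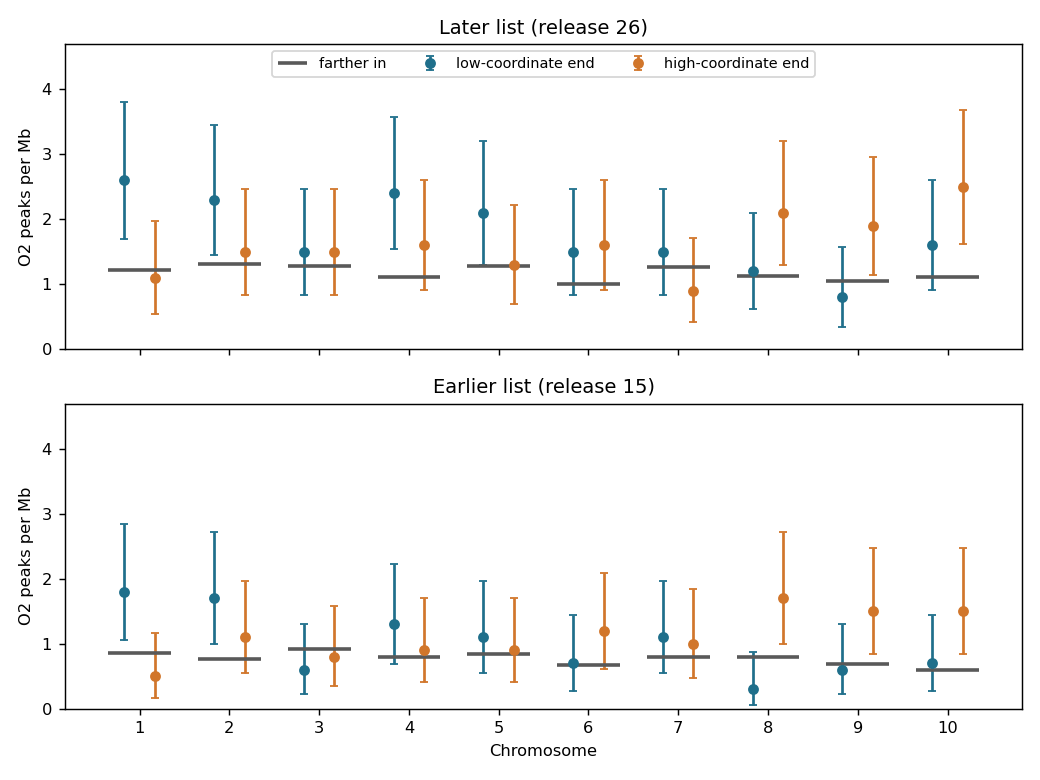
O2 peaks per Mb (vertical axis) in the 10 Mb window at the low-coordinate end (blue) and the high-coordinate end (orange) of each chromosome (horizontal axis), for both lists, without the outermost summit. Bars are exact Poisson 95% intervals and grey lines the density farther in. The later windows run from 0.8 per Mb at the low end of chromosome 9 to 2.6 at the low end of chromosome 1.

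Density was lower at greater distances, unevenly, and the step at the 10 Mb border did not pass the test. In steps of 10 Mb from the outermost summit the later list had 1.68, 1.47, 1.24, 1.38, 1.23, 1.11 and 1.16 peaks per Mb out to 70 Mb, and 1.06 per Mb (0.979 to 1.14) beyond. Intervals of the first 2 steps overlapped (1.5 to 1.86 and 1.31 to 1.65), and the interval of the first step lay above that of the sites beyond 70 Mb. Set against the next 10 Mb alone, the end windows had a mean log2 ratio of 0.20 ± 0.41 (SD, n = 10), which did not pass the exact permutation test (p = 0.154, adjusted p = 0.309). A difference between the outermost 10 Mb and the following 10 Mb was thus not shown over both sides. The sides had different values here. The low side went from 1.75 (1.5 to 2.03) to 1.29 (1.08 to 1.53) peaks per Mb, and the high side from 1.6 (1.36 to 1.87) to 1.65 (1.41 to 1.92). The difference between sides was not tested.

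Earlier steps were 1.05, 0.910, 0.800, 0.985, 0.875, 0.735 and 0.735 per Mb, and 0.695 (0.632 to 0.763) beyond 70 Mb. In both lists the step from 30 to 40 Mb stood above the step before it, and this came from the high-coordinate side. From 30 to 40 Mb, that side had 1.58 peaks per Mb (1.34 to 1.85) and the low side 1.18 (0.977 to 1.41) in the later list. The earlier list had 1.24 (1.03 to 1.48) and 0.730 (0.572 to 0.918) there. This step was singled out after its values had been seen.

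Within the windows the outer and the inner 5 Mb were not shown to differ in density. The later list had 174 peaks at 1.74 per Mb (1.49 to 2.02) in the outermost 5 Mb and 161 at 1.61 (1.37 to 1.88) from 5 to 10 Mb. The outer part held more peaks at 10 of the 20 ends, fewer at 8 and the same number at 2. Earlier values were 1.14 (0.940 to 1.37) and 0.960 (0.778 to 1.17), and the intervals overlapped in both lists.

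**Figure D2:**
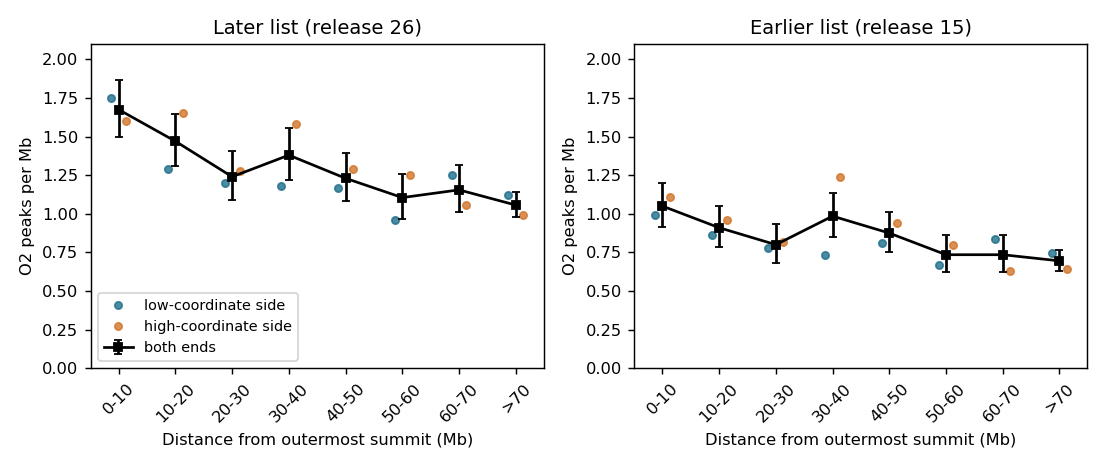
O2 peaks per Mb (vertical axis) in steps of 10 Mb from the outermost summit (horizontal axis, Mb; the last step holds all sites beyond 70 Mb). Black squares join both ends, with exact Poisson 95% intervals, and circles give the low-coordinate (blue) and high-coordinate (orange) sides. The later density is 1.68 in the first step and 1.06 in the last.

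Counts varied among the 20 ends. With the outermost summit included, a later window held 17.8 ± 5.18 peaks (SD, n = 20 ends), with a median of 16.5 and a range from 9 to 27. Of the 20 ends, 17 were denser than the inner part of their own chromosome, and for 7 of these the Poisson interval lay wholly above it. No interval lay wholly below it. In the earlier list 15 of 20 ends were denser, 5 of them beyond their interval, and windows held 4 to 19 peaks.

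The windows with the most peaks were the low-coordinate end of chromosome 1 with 27 and the high-coordinate end of chromosome 10 with 26. Next came the low ends of chromosome 4 with 25 and of chromosome 2 with 24. The low end of chromosome 9 had only 9 peaks, followed by the high end of chromosome 7 with 10 and the high end of chromosome 1 with 12. Without the outermost summit the Poisson interval was 16.98 to 38.1 for the fullest window and 3.45 to 15.8 for the emptiest. These windows were picked as the extremes of 20, so their intervals are a description and no test of a difference. Intervals of neighbours in this order overlapped.

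In 1 Mb steps an average later window had 2.05 ± 1.28 empty steps of 10 (SD, n = 20 ends). The outermost summit was counted here, so the first step could not be empty. Steps were all filled at 3 ends, namely both ends of chromosome 10 and the low end of chromosome 4, and 5 were empty at the low end of chromosome 9. That window held the longest stretch without a peak, 3.33 Mb, while the longest at the high end of chromosome 10 was 0.990 Mb. The fullest single step, with 8 peaks, was at the low end of chromosome 1.

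Neither side of the chromosomes was shown to be richer. Low-coordinate ends held 185 later peaks and high-coordinate ends 170. Without the outermost summits the counts per end were 17.5 ± 5.76 and 16 ± 4.71 (SD, n = 10 each). The mean difference, high minus low, was -1.5 ± 8.91 peaks (exact sign-flip permutation p = 0.598), with the high end fuller on 4 chromosomes, the low end on 5 and both equal on chromosome 3. In the earlier list the mean difference was 1.20 ± 8.04 (exact permutation p = 0.668), so even its sign depended on the list. The test bears on the mean over chromosomes and not on any one of them.

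Single chromosomes leaned in different directions, in the later list mostly within counting error. Counts here leave out the outermost summits. On chromosome 1 the low end had 26 peaks and the high end 11, so that the high end held 29.7% of both (exact binomial 95% interval 15.9 to 47.0). It was the only chromosome of the later list whose interval left out 50%. Chromosome 9 leaned the other way, with 8 and 19 peaks (70.4% at the high end, 49.8 to 86.2). Chromosomes 8 and 10 had the same direction, with 12 and 21 peaks (63.6%, 45.1 to 79.6) and 16 and 25 (61.0%, 44.5 to 75.8). Chromosomes 2, 4, 5 and 7 leaned toward the low end, with 39.5%, 40%, 38.2% and 37.5% at the high end. Their intervals included 50% too. These intervals are not adjusted for looking at 10 chromosomes.

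The earlier list leaned the same way on chromosomes 1, 8, 9 and 10, and also on chromosomes 2, 4, 5 and 7. Again without the outermost summits, its high end held 5 of 23 peaks on chromosome 1 (21.7%, 7.46 to 43.7). On chromosome 8 the high end held 17 of 20 (62.1 to 96.8%). These were the 2 chromosomes of that list whose interval left out 50%. On chromosomes 9 and 10 the high end held 71.4% (47.8 to 88.7) and 68.2% (45.1 to 86.1). The windows of both lists do not cover the same sequence. On chromosome 1, for example, the first summit stood at 979762 in the later list and at 3041078 in the earlier one.

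Peaks near the ends were not shown to differ in strength from those farther in. Pileup, the number of overlapping O2 fragments at the summit as given by the authors, had a median of 29 near the ends (quartiles 19 and 50.5, range 9 to 206). Farther in it was also 29 (20 and 54, range 8 to 327). The chromosome medians averaged 28.7 ± 2.65 near the ends and 29.6 ± 2.90 farther in (SD, n = 10). The difference in median log2 pileup was -0.04 ± 0.23, from -0.43 on one chromosome to 0.25 on another, and did not pass the exact permutation test (p = 0.547, adjusted p = 0.547). End pileup was higher on 3 chromosomes, lower on 6 and equal on 1.

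In the earlier list the medians were 26 near the ends and 28 farther in, and the difference over chromosomes was -0.07 ± 0.22 (exact permutation p = 0.314, adjusted p = 0.419). The background under the summits, recovered from the authors' pileup and fold, was close in both zones. Its chromosome medians averaged 2.78 ± 0.248 near the ends and 2.87 ± 0.106 farther in for the later list, and 2.49 ± 0.500 and 2.52 ± 0.202 for the earlier one (SD, n = 10).

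Counts of strong and weak sites near the ends were close to those of all sites. Fold enrichment, the authors' ratio of pileup to IgG-based background with 1 added to both, was at least 20 at 37 of 355 later end peaks (10.4%, exact binomial 95% interval 7.45 to 14.1). The share of all chromosomal peaks was 12.4%. It was under 5 at 65 end peaks (18.3%, 14.4 to 22.7) against 17.8% of all. A pileup of 91 or more, which marks the top of the list, was reached by 29 end peaks (8.17%, 5.54 to 11.5) against 10.3% of all. In the earlier list a fold of 20 was reached by 23 of 230 end peaks (6.45 to 14.6%) against 11.8% of all. The share under 5 was 14.3% (10.1 to 19.6) against 15.4%, and that with a pileup of 79 or more was 8.26% (5.05 to 12.6) against 10.5%. In all 6 cases the share of all peaks lay within the interval of the end peaks.

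A difference in peak length was not shown either. Later end peaks had a median length of 361 bp (quartiles 299.5 and 443.5) and inner ones 377 bp (309 and 452). Over chromosomes the medians averaged 364 ± 24.4 bp and 376 ± 14.4 bp (SD, n = 10), a difference of -12.1 ± 31.1 bp that did not pass the exact permutation test (p = 0.252, adjusted p = 0.336). It was positive on 6 chromosomes and negative on 4. Earlier medians were 411.5 and 412 bp, with a mean difference of -5.30 ± 21.2 bp (p = 0.451 in the exact permutation test, adjusted p = 0.451). Higher summits tend to be called over longer intervals, so length and pileup are not separate evidence. Summits sat in the middle of their peaks in both zones, at 50.1% and 49.9% of the length (medians).

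Spacing was tighter near the ends of the later list. Distance to the nearest summit falls as density rises, so it is not a separate measure. The nearest other summit lay at a median of 186 kb (quartiles 72.9 and 397 kb) near the later ends and 268 kb (102 and 557 kb) farther in. Chromosome medians averaged 190 ± 93.7 kb and 277 ± 44.1 kb (SD, n = 10), and the difference in median log2 distance was -0.66 ± 0.68 (exact permutation p = 0.0176, adjusted p = 0.0352). End spacing was shorter on 9 of 10 chromosomes. Chromosome 7 was again the exception, at 416 kb near the ends and 248 kb farther in. Leaving out any one of 8 chromosomes, all but 7 and 9, ended the call (adjusted p up to 0.0703). The call did not hold in the earlier list either (-0.64 ± 0.92, exact permutation p = 0.0566, adjusted p = 0.113), where spacing was shorter on 7 chromosomes and longer on 3.

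A summit within 100 kb was found for 125 of 355 later end peaks (35.2%, 30.2 to 40.4), against 26.1% of all chromosomal peaks and 24.6% (22.8 to 26.4) of those farther in. The earlier list had 26.1% (20.5 to 32.3) near the ends against 20.2% of all and 19.3% (17.3 to 21.4) farther in. Its sides had different values, 18.3% (11.6 to 26.9) at low-coordinate ends and 33.1% (24.8 to 42.2) at high-coordinate ends. In the later list these were 36.2% and 34.1%. Only the high side was thus above the inner share in the earlier list. Within 10 kb the later shares were 7.04% (4.61 to 10.22) and 4.18% (3.38 to 5.10). Both members of a close pair count here, so the peaks are not independent and the intervals are too narrow.

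**Figure D3:**
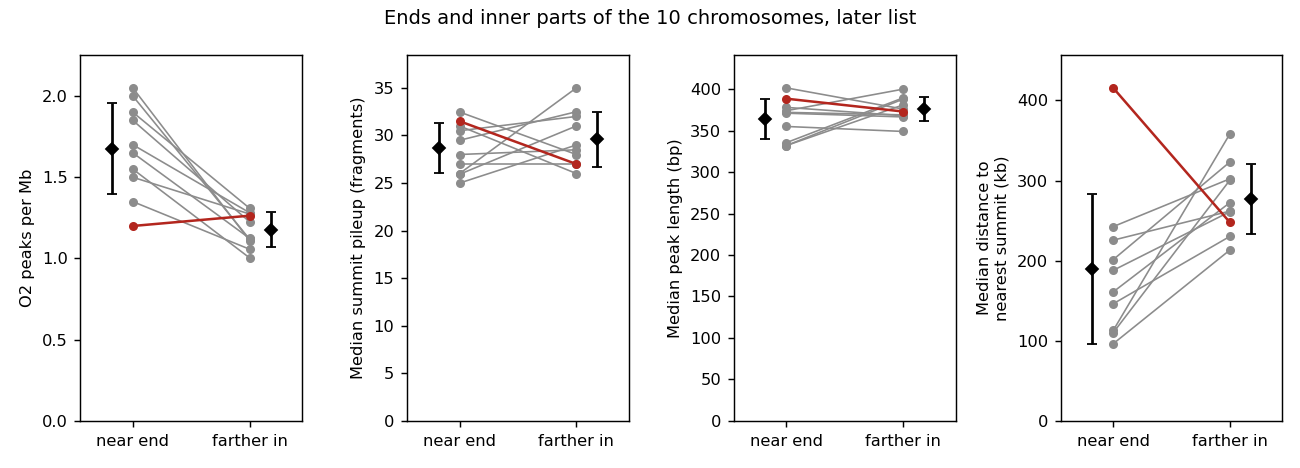
Peaks per Mb, median summit pileup (fragments), median peak length (bp) and median distance to the nearest summit (kb) near the ends and farther in, later list. Each line is 1 of 10 chromosomes, chromosome 7 in red, and diamonds with bars give the mean and SD over chromosomes. Density and spacing shift between zones on 9 chromosomes, while pileup and length lines cross.

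Each end also had its own strongest site. The 3 end peaks of highest pileup in the later list lay at high-coordinate ends. They were the peak on chromosome 3 from 224008207 to 224008729 (pileup 206, fold 26.4), the one on chromosome 9 from 150283435 to 150284024 (pileup 204, fold 26.1) and the one on chromosome 2 from 237488571 to 237489229 (pileup 203, fold 54.4). By pileup they ranked 11, 12 and 13 among all chromosomal peaks. The chromosome 2 peak had the highest fold of any end peak and ranked 5 by fold on the chromosomes.

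That chromosome 2 site was also among the outermost. It lay only 0.0530 Mb inside the last summit of the chromosome, whose peak at 237541598 to 237542052 had a pileup of 76. The earlier list gave the same distance of 52.952 kb between its last 2 summits of chromosome 2, with a pileup of 208 at the stronger one. On chromosome 9 the outermost peak of the high end, at 156576356 to 156577038, itself had a pileup of 178 (fold 36.4), below the 204 of the peak 6.29 Mb farther in. The low end of chromosome 6 was topped by its outermost peak too, at 866568 to 867072, with a pileup of 133 (fold 19.5).

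Chromosome 1 had the fullest low end and one of the emptiest high ends. The low end's 27 peaks had a median pileup of 22 (10 to 125), and the 12 of the high end had a median of 27 (16 to 124). Median fold had the opposite order, at 6.83 for the low end and 6.01 for the high end. The low end's highest pileup, 125, stood at 8186170 to 8186532 over a background of 62.6, so its fold was only 1.98. At the high end the strongest peak, at 298197015 to 298197497, reached 124 over a background of 2.94 (fold 31.8). Equal pileup thus went with very different enrichment at the 2 ends. The outermost peak of the low end, at 979625 to 979925, had a pileup of 25.

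The border of the window cut through no cluster at this end. The last 2 peaks inside it lay 9.01 and 9.09 Mb from the outermost summit, with pileups of 32 and 19. The first 2 outside lay at 10.01 and 10.4 Mb, with pileups of 37 and 21.

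Chromosome 2 had 24 peaks at its low end, with a median pileup of 37.5 (13 to 118), and 16 at its high end, with 25.5 (10 to 203). The strongest of the low end, at 1465547 to 1466030, reached 118 (fold 24.2). Chromosome 3 had 16 peaks at each end, with medians of 26 (13 to 148) and 25.5 (16 to 206). The low end was led by the peak from 404686 to 405223 (pileup 148, fold 15.2). Both chromosomes carried a peak above 200 at the high end only, while their median pileups there were the same.

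On chromosome 4 the low end held 25 peaks with a median pileup of 30 (14 to 116) and the high end 17 with 26 (9 to 157). The leading sites were at 4696245 to 4696832 (pileup 116, fold 28.5) and at 239739711 to 239740264 (pileup 157, fold 47.0). The latter had the second highest fold of all end peaks. On chromosome 5 the low end held 22 peaks with a median of 28.5 (10 to 104) and the high end 14 with 34.5 (15 to 102). Their strongest, at 9535821 to 9536329 and at 208603722 to 208604286, had pileups of 104 and 102 but folds of 26.7 and 43.9. The second stood on a background of 1.35, the lowest value among end peaks and shared by several.

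The low end of chromosome 6 had the highest median pileup of the 20, at 43.5 (9 to 133) over 16 peaks. Its high end had 17 peaks with a median of 26 and a range of 15 to 63. No peak of that high end reached a fold of 20. The strongest, at 160432666 to 160433147, reached 63 (fold 18.8), the lowest maximum of any end. The 2 ends of this chromosome were thus nearly equal in count and differed in their strongest sites. In the earlier list the low end again had the highest median, 68.5 over 8 peaks, against 20 over 13 at the high end. This chromosome was picked out after its values had been seen.

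Chromosome 7 had 16 peaks at its low end, with a median pileup of 31.5 (14 to 148), and 10 at its high end, with 31 (10 to 87). The low end's strongest peak, at 10098897 to 10099410, reached 148 over a background of 11.7, giving a fold of 11.7. The high end's, at 167382235 to 167382713, reached 87 (fold 22.5). Chromosome 8 had 13 and 22 peaks. Its low end had the lowest median pileup of the 20 ends, 18 (11 to 106), yet held the peak with the third highest fold near an end, 45.6 at 7479335 to 7479851 (pileup 106). That peak stood on a background of 1.35, the lowest value of the later list both near the ends and farther in. The high end had a median of 29 (14 to 103), led by 168182693 to 168183165 (pileup 103, fold 26.4).

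Chromosome 9 had 9 peaks at its low end, with a median pileup of 36 (13 to 94), and 20 at its high end, with 26.5 (13 to 204). The strongest low-end peak, at 1920453 to 1920920, reached 94 (fold 19.3). The first peak of this sparse end, at 1282228 to 1282507, had a pileup of 13. Chromosome 10 had 17 and 26 peaks, both with a median of 27 (14 to 75 and 9 to 114). They were led by 8166840 to 8167318 (pileup 75, fold 12.9) and by 148364579 to 148365057 (pileup 114, fold 29.1). Fuller ends of chromosomes 9 and 10 thus did not have higher median pileups than sparser ones.

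**Figure D4:**
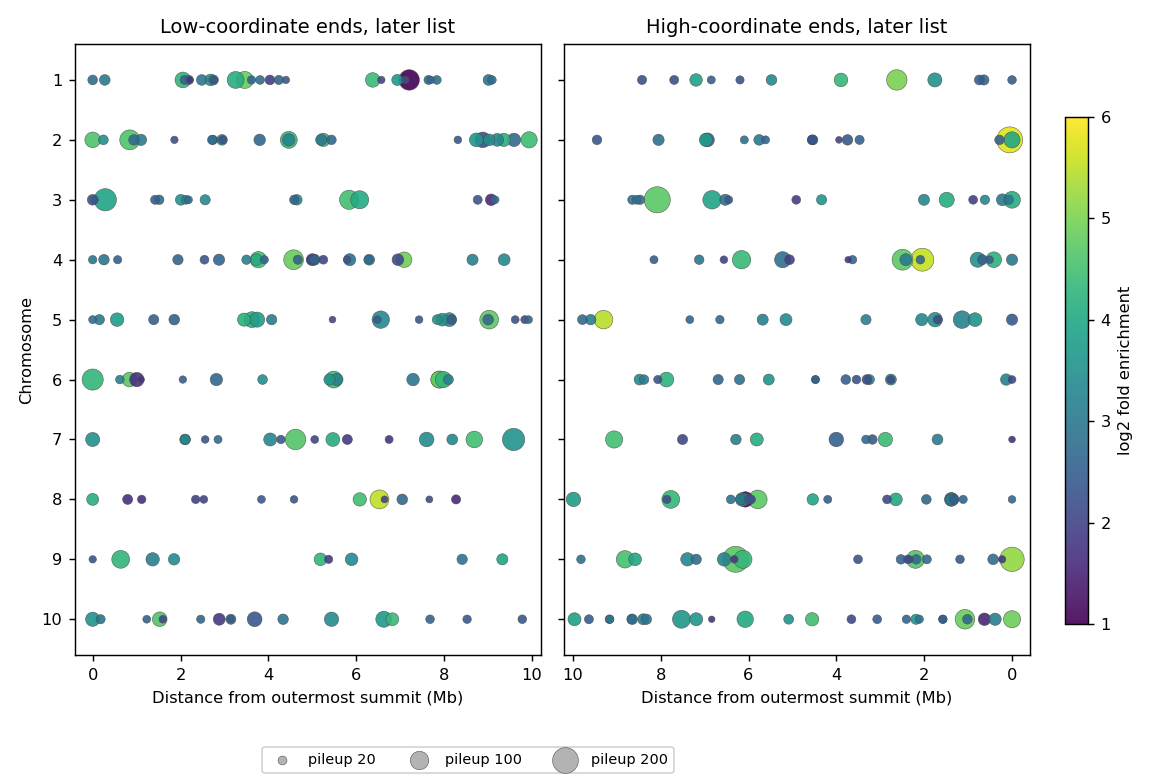
All 355 later end peaks by chromosome (vertical axis) and distance from the outermost summit (horizontal axis, Mb), low-coordinate ends on the left and high-coordinate ends on the right. Circle size rises with pileup and colour gives log2 fold enrichment. The large dark circle on chromosome 1 is the peak with a pileup of 125 and a fold of 1.98.

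Close groups of sites occurred at several ends. The closest pair of summits near a later end lay 599 bp apart on chromosome 6, in the peaks at 165542432 to 165542885 (pileup 16) and 165543167 to 165543538 (pileup 33). A pair on chromosome 2, at 5086613 to 5087029 and 5087427 to 5087920, was 842 bp apart with pileups of 43 and 84. The earlier list held pairs of like spacing and pileup there, 622 and 836 bp apart, with pileups of 16 and 30 and of 42 and 85. No end peak shared its called interval with another summit.

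Chaining summits at most 100 kb apart gave 9 later groups of 3 or more end peaks. The fullest, from 167797710 to 168033449 at the high end of chromosome 8, held 6 peaks with pileups of 31, 53, 40, 69, 23 and 19. The one with 69, at 167900799 to 167901094, had the lowest fold of all end peaks, 1.83, over a background of 37.2. Another group of 4 on that end ran from 172582696 to 172653114. On chromosome 6, from 8758333 to 8854204 of the low end, 3 peaks had nearly equal pileups of 84, 85 and 77. Their earlier counterparts, from 8755514 to 8851443, had 82, 81 and 72. They are described because their values stood out once seen, with no comparison for their number.

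Sites of both lists could be paired in part from the spacing to their neighbours. With 2 neighbouring summits within 1 Mb matched to 500 bp, 99 later end peaks (27.9%) and 105 earlier ones (45.7%) had a partner in the other list. Farther in the shares were lower, at 549 of 2200 later peaks (24.95%) and 543 of 1451 earlier ones (37.4%). The rule needs 2 neighbours within 1 Mb, so these shares also depend on density. The differences were not tested. With 1 matched neighbour the numbers near the ends were 152 (42.8%) and 161 (70%), against 43.8% and 65.8% farther in. Coordinates shifted little at low ends and more at high ends. The median shift, later minus earlier, was between -6.35 and 4.93 kb at the 7 low ends with partners, 670 kb at the high end of chromosome 2 and -562 kb at that of chromosome 10.

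Paired sites mostly had similar pileups. Of the 99, 70 differed by at most 25%, 9 were at least 2-fold higher in the later list and none at least 2-fold lower. The largest gains were at the outer low end of chromosome 1 and the high ends of chromosomes 10 and 3. On chromosome 1 the peak at 4440603 to 4441095 had a pileup of 86 and was paired with 14. The neighbour of this earlier summit lay 978 bp away, so that pairing is uncertain. On chromosome 10 the leading high-end peak, with 114, was paired with 21, and on chromosome 3 the outermost high-end peak, with 83, with 16. Among the 5 earlier end peaks of highest pileup, the first was that of chromosome 2 (208). The others were the outermost peak of chromosome 9 (133), a low-end peak of chromosome 4 at 4691707 to 4692314 (121), a high-end peak of chromosome 3 at 225170006 to 225170552 (103) and a low-end peak of chromosome 2 at 1463047 to 1463574 (101, fold 52.0).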

How the data were processed

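ChIP-seq of maize endosperm was analysed from 2 peak lists that the authors deposited for 1 anti-O2 and 1 IgG library. Per the submitters' processing notes the tools were Bowtie2 and MACS2 (2.0.10 and 2.1.0). Genome build, read filters and calling threshold: not given in the sources used here. Per the file headers, the deposited pileup is a signal of overlapping fragments, the deposited fold is the ratio (pileup + 1) / (background + 1), and p and q are deposited as -log10 values. In the later list a spreadsheet error had replaced the headers of the last pair, which were told apart by column order and because the second equals the score of the summit list. All 2567 later and 1686 earlier summits, filed under IgG, were those of the O2 peaks.

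Positions are those of each list, counted from 1 and never converted. End windows reached 10 Mb from the outermost summit. Densities left that summit out and had exact Poisson 95% intervals, density ratios exact conditional binomial ones, and shares Clopper-Pearson ones. Differences per chromosome were tested with exact two-sided sign-flip permutation, adjusted over 4 measures by Benjamini-Hochberg. No test compared libraries. The functions were tested on simulated data. Other windows, q minimums, backgrounds and ways of counting were tried, as well as leaving out each chromosome. Members, windows and tests were chosen with earlier results of these data known, and the pairing of lists after seeing the data. Peaks named were the strongest at each end, the closest pairs, the outermost peak of the fullest and emptiest ends, those at the window border and the 5 strongest earlier ones. Groups within 100 kb, the peak of lowest fold and the last peaks of chromosomes 2 and 9 were named after their values were seen. So were pairs with the largest gain between lists. Work used Python 3.11.15, NumPy 2.4.6, pandas 2.3.3 and SciPy 1.17.1. Peaks on unplaced and organelle sequence were left out.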

Additional observations from a re-analysis of the deposited data

How the results depend on the processing

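Of 39 values from other settings, 34 kept their direction and side of the threshold. End density lost its call against the next 10 Mb (mean log2 ratio 0.1995, exact permutation, adjusted p = 0.309) and kept it in the other 8 settings (exact permutation, adjusted p from 0.00391 to 0.0312). Spacing lost it in the earlier list (mean log2 difference -0.637, exact permutation, adjusted p = 0.113). The difference between high and low ends, never called, changed sign with 20 Mb windows (2.1), with q restricted to a -log10 value of 5 or more (0.1) and in the earlier list (1.2). Pileup and length differences passed the test in none of their 15 alternatives. Leaving out each chromosome in turn, a check added after seeing the data, gave a mean log2 density ratio of 0.452 to 0.559 and a mean log2 spacing difference of -0.819 to -0.551, the latter call lost in 8 of 10 cases. The log2 pileup difference ran from -0.0778 to -0.00192, length from -16.2 to -7.17 bp and the difference between ends from -2.89 to 0. Pairing gave 91 later end peaks a partner at a tolerance of 200 bp, and 98 with 3 neighbours over 2 Mb. The cause of these changes was not tested. The depth is not known, and no library could be left out because each antibody has 1.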
